A study of Mus musculus with 6 samples.

Results

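Chromatin accessibility was described at 9 genes that hold back the cell cycle or mark cellular senescence: Cdkn2a, Cdkn2b, Cdkn2c, Cdkn1a, Cdkn1b, Trp53, Mdm2, Rb1 and Lmnb1. These 9 genes were chosen by name for their roles, out of 21853 protein-coding genes. For each gene, called peaks within 1000 bp of any start site of a protein-coding transcript (transcription start site, TSS), in the gene body and in the 20000 bp upstream were collected. The material was cultured SSPCs, the skeletal stem and progenitor cells, from tibial and femoral bone marrow of C57BL/6 mice, grown in plastic flasks in serum-containing medium, untreated and used at passage one. The assay was ATAC-seq, in which a transposase cuts and tags open DNA, so that sequenced fragments pile up as peaks at accessible sites. Libraries were labeled young (n = 3) or middle-aged (n = 3), with age given in the labels only as these 2 classes, and the question was whether accessibility differed with age. The labels do not tie a library to an animal, so p-values here measure the spread between these libraries, which may be technical.

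Cells that stop dividing for good, as in senescence, do so through a pair of linked brakes. Cyclin-dependent kinases phosphorylate the retinoblastoma protein Rb1 and thereby free E2F transcription factors, and the INK4 inhibitors (Cdkn2a to Cdkn2c) and the CIP/KIP inhibitors (Cdkn1a, Cdkn1b) block those kinases. p53, encoded by Trp53 and degraded through Mdm2, switches on Cdkn1a after DNA damage. Lamin B1, encoded by Lmnb1, lines the nucleus and is known to decline in senescent cells. Rising p16Ink4a, a product of Cdkn2a, is a widely used sign of aging in mouse tissues, including bone.

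The lists held 35953, 43941 and 27628 peaks in young 1, 2 and 3, and between 46364 and 48344 in the middle-aged libraries. Depth, taken as the genome-wide background in extended reads per base, ran from 1.65 in young 3 to 3.75 in young 1 and from 2.40 to 2.79 in middle-aged libraries. Young 3 was therefore the shallowest library with the shortest list. Of 8 SSPC markers, young 1, 2 and 3 had a peak at the TSS of 6, 5 and 2, and middle-aged 1, 2 and 3 of 5, 6 and 6. Lepr and Prrx1 were without one in all 6 libraries. Of 8 macrophage and other blood markers, between 7 and 8 had a TSS peak in each library, and of 5 endothelial markers between 2 and 5 did, with Cdh5 called in all 6. Between the groups, Pdgfra was called in 1 young and 3 middle-aged libraries and Csf1r in 2 young and 0 middle-aged ones. Of all genes with a TSS peak in any library, 4.51% had one in at least 2 more middle-aged libraries. The share with one in at least 2 more young libraries was 0.178%. Of the 7 blood markers called in all 6 libraries, 2, Adgre1 and Laptm5, ranked higher in every middle-aged than in every young library, as did 30.6% of all genes called in all 6. Kitl and Runx2 were the 2 SSPC markers called in all 6 libraries. So were 7 of the 8 blood markers and 1 of the 5 endothelial ones. Of all protein-coding genes, 48.4% had a TSS peak in all 6. Lepr and Prrx1 thus lacked a TSS peak while most blood markers had one, some at low ranks, such as Itgam with 13.3 to 38.1. The part of SSPCs or blood cells in the values below was not tested. In such bulk libraries, a different share of one cell type and a different accessibility per cell cannot be told apart.

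All 9 genes had a TSS peak in all 6 libraries, against 48.4% of all protein-coding genes. Levels were compared as percentile ranks, in which the peak with the highest −log10 q of a library has rank 100, and as the fold enrichment of the peak summit over the local background. The order of mean ranks over 6 libraries was Lmnb1 (93.7), Cdkn2b (93.7), Cdkn2c (93.1), Mdm2 (89.8), Cdkn1b (87.3), Rb1 (82.9), Cdkn2a (78.0), Trp53 (72.8) and Cdkn1a (39.0). The Trp53 value is that of a peak 1 bp from a start of the neighboring gene Wrap53. The region at the Trp53 start itself was called in 4 libraries, with a mean rank of 36.5 where called. Across the 10569 genes with a TSS peak in all 6 libraries, the median mean rank was 84.9 and the middle of the distribution ran from 71.6 to 93.3 (quartiles). Neighbors in this order kept their order in all 6 libraries only for Cdkn2c over Mdm2, Rb1 over Cdkn2a and Trp53 over Cdkn1a. Lmnb1 and Cdkn2b differed by 0.00763 points on average, and each was the higher in 3 libraries. Cdkn1a stood apart at the bottom of this order, with 2.72% of the 10569 genes below its mean rank.

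**Figure D1:**
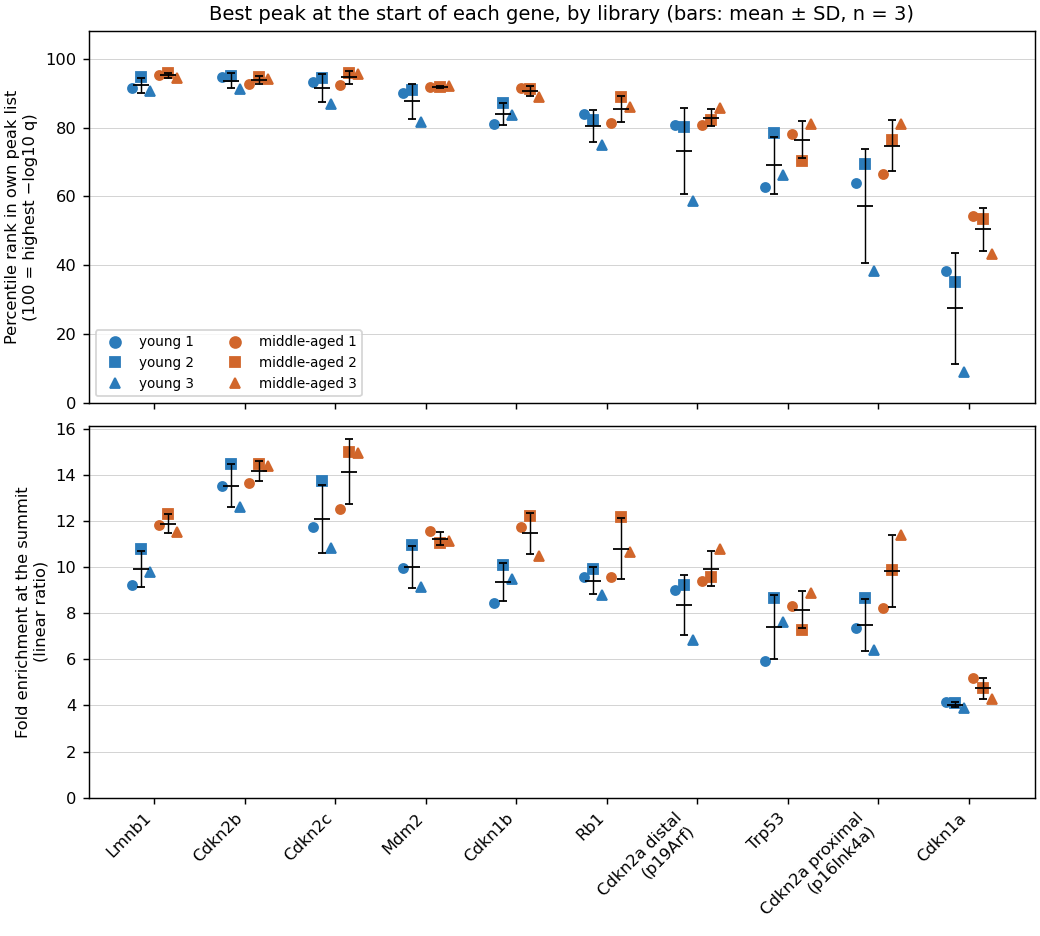
Best TSS peak of each gene by library, as percentile rank within its own peak list (upper panel) and as fold enrichment at the summit (lower panel, linear scale); blue points are young and orange points middle-aged libraries, and bars are the mean ± SD of 3 libraries. Cdkn1a is the lowest in both panels, and the ranks of young 3 lie under those of the other young libraries for most genes.

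The INK4 inhibitors were described first. Cdkn2a (ENSMUSG00000044303.6, chr4:89274471-89294653, mm10, minus strand) has 2 promoters that are read into different proteins. The distal promoter begins the transcript of p19Arf, which binds Mdm2 and so stabilizes p53, and the proximal promoter, at position 89282192, begins the transcript of p16Ink4a, an inhibitor of Cdk4 and Cdk6. The 200 bases directly upstream of each TSS are shown because these promoters differ in base composition (mm10, minus strand, capitals mark matches to the GC box GGGCGG or to an E2F motif, TTTCGCGC, TTTGGCGC, TTTCCCGC or TTTGCCGC, on either strand).
Cdkn2a distal, chr4:89294654-89294853: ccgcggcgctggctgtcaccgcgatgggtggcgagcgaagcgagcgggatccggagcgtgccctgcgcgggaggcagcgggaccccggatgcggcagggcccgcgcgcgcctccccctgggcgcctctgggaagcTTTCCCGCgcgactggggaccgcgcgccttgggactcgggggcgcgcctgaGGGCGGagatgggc
Cdkn2a proximal, chr4:89282193-89282392: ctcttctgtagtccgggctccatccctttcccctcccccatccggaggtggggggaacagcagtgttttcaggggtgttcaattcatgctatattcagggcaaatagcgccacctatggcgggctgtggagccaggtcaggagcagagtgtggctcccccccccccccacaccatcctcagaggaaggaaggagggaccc
The distal stretch had 78.5% G and C and an observed-to-expected CpG ratio of 1.02, with 1 E2F match and 1 GC box. The proximal stretch had 61.0% G and C and a ratio of 0.216, with neither motif. In the 300 bp around the summits, which allow a comparison with other regions, the distal peak held 1 E2F match and 3 GC boxes and the proximal peak 2 GC boxes. E2F matches were found in 4.49% of shared TSS regions and GC boxes in 72.8%.

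At the distal promoter, a broad peak of 1107 to 1270 bp covered the start site in 5 libraries, and in young 3 the signal was called as separate pieces, the best of them 542 bp wide. Its ranks were 80.8, 80.2 and 58.7 in young 1, 2 and 3, against 80.9, 82.1 and 85.6 in middle-aged 1, 2 and 3. The groups did not overlap, but young 1 and middle-aged 1 were 0.1 apart at the precision printed here. The young mean of 73.2 ± 12.5 (SD, n = 3) was 9.61 points under the middle-aged mean of 82.8 ± 2.45 (SD, n = 3) (two-sided exact permutation p = 0.1, the lowest that 3 against 3 libraries allow). Without young 3 the difference was 2.37 points, and when peaks were ranked by fold enrichment the groups overlapped (two-sided exact permutation p = 0.4).

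At the proximal promoter, a narrower peak of 379 to 561 bp had its summit within 63 bp of the p16Ink4a start in every library. Its fold enrichment was 7.37, 8.65 and 6.42 in young 1, 2 and 3, against 8.25, 9.86 and 11.4 in middle-aged 1, 2 and 3. Middle-aged 2 and 3 lay above all young libraries, whereas middle-aged 1 lay below young 2, so the groups overlapped. The ranks followed the same pattern, with 63.8, 69.6 and 38.3 in young libraries, against 66.5, 76.4 and 81.1 in middle-aged ones, a difference of 17.5 points between means (two-sided exact permutation p = 0.2). Without young 3 it was 7.99 points. The widest young peak, at 429 bp, was narrower than the narrowest middle-aged peak, at 513 bp. How many other genes had peak widths that separated the groups was not computed, so no difference with age is read from this. By −log10 q, the proximal promoter ranked under the distal one in each of the 6 libraries. On the fold scale it lay above the distal one in middle-aged 2 (9.86 against 9.58) and middle-aged 3 (11.4 against 10.8), and below it in the other libraries.

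Cdkn2b encodes p15Ink4b, a neighbor of Cdkn2a that inhibits the same kinases (chr4:89306299-89311039, minus strand). Its promoter peak, chr4:89310463-89311316, is also the single accessible region upstream of Cdkn2a within the 20000 bp window, 16416 bp from the distal Cdkn2a start. It ranked 94.8, 95.0 and 91.2 in young libraries, against 92.6, 94.6 and 94.2 in middle-aged ones. The groups overlapped throughout, and their means differed by 0.168 points (two-sided exact permutation p = 1). The young fold enrichment, 13.5 ± 0.926 (SD, n = 3), was the highest of the 9 genes, and the middle-aged one was 14.2 ± 0.449 (SD, n = 3). The sign of the rank difference did not hold up: the Cdkn2b rank difference turned negative without young 3 (−1.05) and when ranked by fold enrichment (−1.13).

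Cdkn2c encodes p18Ink4c, a further inhibitor of Cdk4 and Cdk6 (chr4:109660876-109667189, minus strand). Its peak had the summit 366 bp inside the gene, in an untranslated part of an exon, and ranked 93.4, 94.5 and 86.8 in young libraries, against 92.3, 95.8 and 95.7 in middle-aged ones. The groups overlapped because middle-aged 1 was the lowest after young 3 (difference 3.04, two-sided exact permutation p = 0.3). A region 9454 bp upstream, called in all 6 libraries with a mean rank of 95.1, lay 55 bp from a start of the neighboring gene Faf1.

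The CIP/KIP inhibitors differed sharply from each other. Cdkn1a encodes p21, the classical p53 target that arrests cells after damage (chr17:29090976-29100727, plus strand). Of its 3 separate promoters, only the middle one, with starts at 29093769 and 29093781, had a called peak, and the upstream start at 29090979 and the downstream start at 29097900 had none in any of the 6 libraries. The 200 bases before the middle start are shown because its peak ranked lowest among the best TSS peaks of the 9 genes. The stretch is printed on the plus strand of mm10, and capitals mark GC boxes.
Cdkn1a middle promoter, chr17:29093569-29093768: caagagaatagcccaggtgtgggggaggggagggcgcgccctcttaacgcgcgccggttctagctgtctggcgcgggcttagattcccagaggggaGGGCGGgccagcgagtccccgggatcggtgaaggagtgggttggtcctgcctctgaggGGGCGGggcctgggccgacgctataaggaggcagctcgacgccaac
The stretch had 68.5% G and C and a CpG ratio of 0.769, with 2 GC boxes, as were also found in the 300 bp around the summit. Those 300 bp had a CpG ratio of 0.796, against a median of 0.823 in shared TSS regions.

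The Cdkn1a promoter peak was 211 to 288 bp wide. Its fold enrichment was 4.14, 4.09 and 3.89 in young 1, 2 and 3, against 5.18, 4.76 and 4.28 in middle-aged 1, 2 and 3, so every middle-aged library was above every young one. Its ranks were 38.4, 35.3 and 9.01 in young libraries, against 54.4, 53.6 and 43.2 in middle-aged ones. This was the largest rank difference among the 9 genes, 22.9 points (two-sided exact permutation p = 0.1, the lowest possible). It was 13.6 points without young 3, where this peak fell under a −log10 q of 5, so that the gene had no complete set of values at that threshold. Ranked by fold enrichment, middle-aged 3 (17.6) lay under young 1 (19.6) and the groups overlapped (two-sided exact permutation p = 0.2).

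Away from the TSS, Cdkn1a had a stronger accessible region 11909 bp upstream, chr17:29078857-29079308, called in all 6 libraries. The sequence around its summit is shown because it holds a match to the p53 response element, searched for as a pair of 10-base arms with intact cores, a gap of at most 3 bases and at most 2 mismatches in all. The 80 bases around a match 51 bp before the upstream Cdkn1a start are shown beside it because no library had a peak there (mm10, plus strand, capitals mark the element).
Cdkn1a upstream region, chr17:29078979-29079118: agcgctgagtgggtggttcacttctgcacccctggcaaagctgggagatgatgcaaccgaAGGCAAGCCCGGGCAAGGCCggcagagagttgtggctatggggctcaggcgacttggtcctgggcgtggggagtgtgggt
Cdkn1a upstream start, chr17:29090898-29090977: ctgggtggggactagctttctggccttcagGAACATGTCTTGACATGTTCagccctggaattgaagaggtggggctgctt
Each of these elements had 1 mismatch. The center of the former lay 21 bp from the summit, whereas the nearest called region to the latter was 2624 bp away.

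The upstream region ranked 77.1, 79.7 and 85.7 in young libraries, against 73.2, 79.8 and 83.2 in middle-aged ones, far above the Cdkn1a promoter in each library. Here young 3 had the highest rank and the groups overlapped. A second region lay in an intron 1728 bp after the middle start. Its fold enrichment was 6.71, 6.98 and 5.74 in young libraries, against 7.26, 9.06 and 8.75 in middle-aged ones, without overlap. Of the 22403 regions called in all 6 libraries, 27.4% were likewise higher in every middle-aged library. With each library centered on its median, as described below, the log2 difference of the intron region was 0.13 (SE 0.13). A region 8786 bp upstream was called in middle-aged 1 alone, with a fold of 3.70.

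Cdkn1b encodes p27, which holds resting cells out of the cycle (chr6:134920401-134925513, plus strand), and had 1 accessible region in its whole interval, the promoter. Its fold enrichment was 8.45, 10.1 and 9.50 in young libraries, against 11.8, 12.2 and 10.5 in middle-aged ones. Its ranks were 81.0, 87.3 and 83.7 in young libraries, against 91.5, 91.2 and 88.9 in middle-aged ones. Every middle-aged library was higher than every young one on either scale, and the rank difference was 6.54 points (two-sided exact permutation p = 0.1, the lowest possible). It was least dependent on young 3, with 6.41 points without it.

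The p53 pair came next. Trp53 (chr11:69580359-69591873, plus strand) shares its upstream side with Wrap53, which is read in the opposite direction. The strongest peak in its TSS window, chr11:69579136-69579633, had its summit 1036 bp before the Trp53 start and 1 bp from a Wrap53 start. It ranked 62.7, 78.4 and 66.2 in young libraries, against 78.1, 70.4 and 81.0 in middle-aged ones, with overlapping groups (difference 7.39, two-sided exact permutation p = 0.3). The region at the Trp53 start itself, 50 bp before it, was called in young 1 and 3 and in middle-aged 2 and 3, with a mean rank of 36.5 where called. With a window of 500 bp, or with the summit required inside the window, Trp53 therefore had no TSS peak in 2 of 6 libraries.

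Inside Trp53, a region 1110 bp after the start was called in young 2 and in all 3 middle-aged libraries, with folds of 6.06 and of 6.56, 5.50 and 5.34. A region 5673 bp after the start went the other way and was called in young 2 and 3 and in no middle-aged library, at low folds of 4.31 and 4.48. Regions called in at least 2 more middle-aged libraries made up 13.7% of all 63840 regions, and those called in at least 2 more young libraries 0.741%.

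Mdm2 encodes the ubiquitin ligase that removes p53 (chr10:117688875-117710758, minus strand). Its promoter was called as 2 peaks in 5 libraries and as 1 peak of 1053 bp in middle-aged 3. The best peak ranked 90.0, 91.0 and 81.8 in young libraries, against 91.7, 91.9 and 92.2 in middle-aged ones, which did not overlap (difference 4.33, two-sided exact permutation p = 0.1, the lowest possible). The margin between young 2 and middle-aged 1 was small, and the difference was 1.42 points without young 3. Ranked by fold enrichment, middle-aged 2 (83.7) lay under young 1 (84.7) and young 2 (84.5), so the groups overlapped (two-sided exact permutation p = 0.5).

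Upstream of Mdm2, regions at 7008 bp and 10889 bp were called in all 6 libraries. The former, chr10:117717585-117718005, ranked between 63.4 and 82.1 and is shown because it too holds a p53 response element close to its summit, 20 bp away (mm10, minus strand, capitals mark the element).
Mdm2 upstream region, chr10:117717676-117717815: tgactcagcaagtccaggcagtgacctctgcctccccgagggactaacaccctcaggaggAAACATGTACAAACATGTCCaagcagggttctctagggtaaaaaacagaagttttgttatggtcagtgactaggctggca
The same 140 bases begin with a match to the AP-1 motif TGANTCA, which 25.7% of the shared distal regions held. The fold of this region was 8.46, 8.50 and 7.71 in young libraries, against 9.25, 10.2 and 9.63 in middle-aged ones, without overlap. A higher fold in every middle-aged library was shared by 27.4% of the 22403 regions called in all 6 libraries. With each library centered on its median, as described below, the log2 difference of this region was 0.0023 (SE 0.12). The farther region had lower folds, between 5.31 and 7.43, with overlapping groups.

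Rb1 (chr14:73183673-73325822, minus strand), the pocket protein at the end of the kinase pathway, is the longest of the 9 genes and had 6 regions in its interval. Its promoter ranked 83.9, 82.2 and 75.0 in young libraries, against 81.4, 88.9 and 86.1 in middle-aged ones, with overlapping groups (difference 5.07, two-sided exact permutation p = 0.3). The 300 bp around its summit had 81.3% G and C, more than 98.6% of the shared TSS regions, and 5 GC boxes. A region 8262 bp upstream and one in an intron 103046 bp after the start were called in all 6 libraries, with mean ranks of 50.6 and 67.8. Regions 91083 bp after and 11101 bp before the start were called in 5 and 3 libraries.

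A region 87890 bp after the Rb1 start, chr14:73237738-73238199, lay 37 bp from a start of Lpar6, a lysophosphatidic acid receptor gene that sits inside an Rb1 intron. Its fold enrichment was 9.11, 9.07 and 7.80 in young 1, 2 and 3, against 7.49, 7.69 and 6.25 in middle-aged 1, 2 and 3. Every middle-aged library was below every young one on this scale, a direction shared by 103 of the 22403 regions called in all 6 libraries (0.46%). Its ranks, 76.1, 76.3 and 66.0 in young libraries, against 67.8, 64.7 and 55.9 in middle-aged ones, overlapped. This region and the one at 91083 bp each held a p53 response element with 2 mismatches, shown for comparison with those of Cdkn1a and Mdm2 (mm10, minus strand, all bases belong to the element).
Rb1 region at Lpar6, chr14:73238053-73238072: AAGCATGTTCGCGCTTGCTG
Rb1 region at 91083 bp, chr14:73234771-73234790: AAACTAGCCTGGACAAGACA
The former lay 130 bp from the summit and the latter 41 bp.

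Lmnb1 (chr18:56707813-56753424, plus strand) had the highest mean rank of the 9 genes. Its promoter peak ranked 91.4, 94.8 and 90.6 in young libraries, against 95.4, 95.8 and 94.5 in middle-aged ones, and the groups overlapped by the value of young 2 (difference 2.97, two-sided exact permutation p = 0.2). On the fold scale they did not overlap, with 9.22, 10.8 and 9.78 in young libraries, against 11.8, 12.3 and 11.5 in middle-aged ones. A separate region 1171 bp after the start and one in an intron 29728 bp after it were called in all 6 libraries. Intron regions at 19659 bp and 37416 bp were called in 2 and 1 middle-aged libraries and in no young one, with folds between 3.53 and 5.58.

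**Figure D2:**
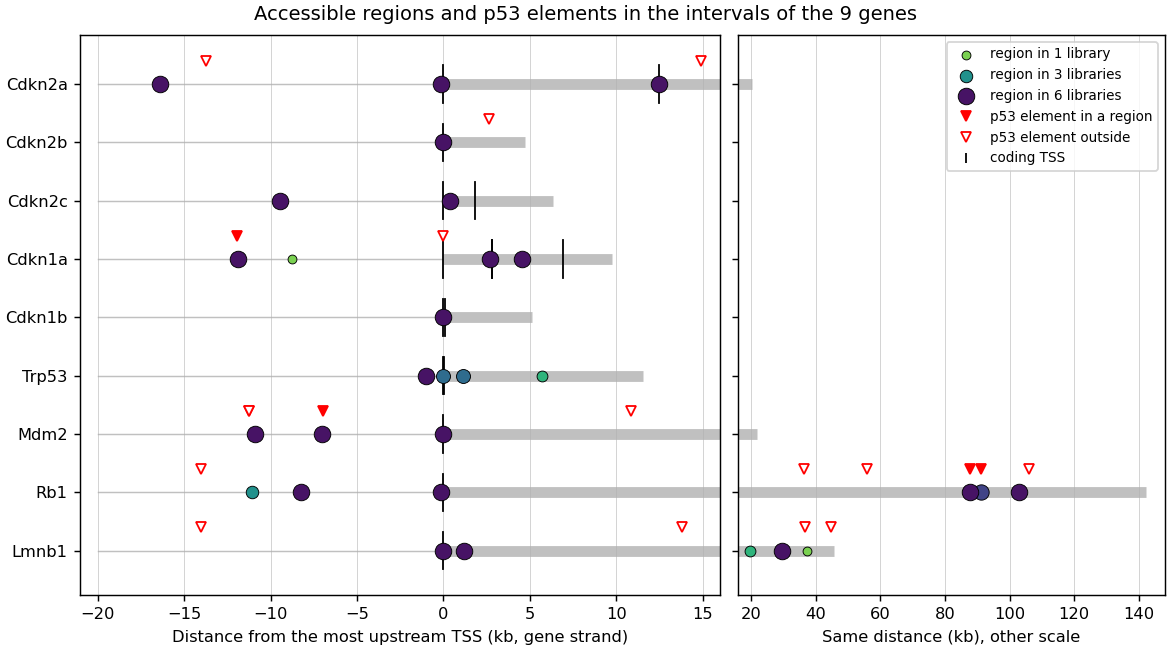
Accessible regions in the interval of each gene, by distance in kb from its most upstream TSS along its own strand; the left and right panels have different scales, gray bars are gene bodies, black ticks are TSSs, circles are merged regions with size and color by the number of libraries, and triangles are p53 response elements, filled where they lie in a called region. The filled triangles fall at the upstream regions of Cdkn1a and Mdm2 and at neighboring intron regions of Rb1.

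The 9 intervals, 438.9 kb in all, held 18 matches to the p53 response element, counting the overlapping pair upstream of Mdm2 as 2. Of these, 4 lay in a called region and 3 in a region called in all 6 libraries. The called regions covered 3.41% of the intervals. Among all shared regions, 0.638% held such a match in the 300 bp around the summit, 0.881% of distal and 0.357% of TSS regions. No match lay in a called TSS region of any of the 9 genes, which says only that these letters are not there. The Cdkn1a match 51 bp before the upstream start lay within 1000 bp of a TSS, but in no called region.

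Next, the difference with age was read against the same measure over all genes. The rank groups did not overlap, with middle-aged higher, for 4 of the 9 genes: Cdkn2a, Cdkn1a, Cdkn1b and Mdm2. The same held for 30.6% of the 10569 genes called in all 6 libraries, and the opposite for 0 of 9 genes and 0.274%. Ranked by fold enrichment in place of −log10 q, 2 of 9 genes, Cdkn1b and Lmnb1, were higher without overlap and 0 lower, against 23.3% and 0.804% of all genes, so that Cdkn1b alone was called by both rankings. On the fold scale itself Lmnb1 joined the 4 genes, so that 5 of 9 were higher without overlap and 0 lower, against 38.5% and 0.114% of all genes. As summit height, the pileup over the genome-wide background of the library, 7 of 9 were higher and 0 lower, against 60.8% and 0.0284%. The median rank difference was 5.07 points over the 9 genes and 4.97 over all genes, and the mean was higher in middle-aged libraries for 9 of 9 genes and for 93.9% of all genes. The direction was thus that of nearly all genes, and the count and size lay near the background.

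**Figure D3:**
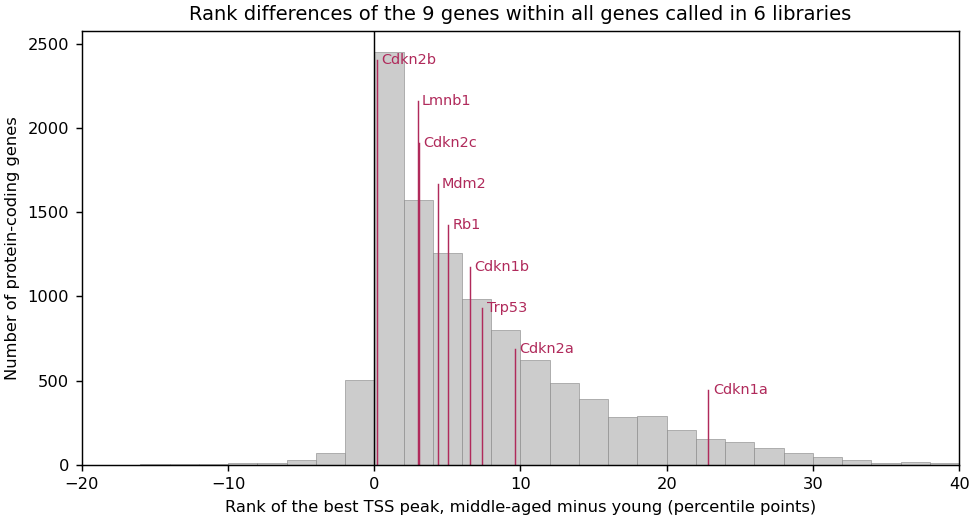
Distribution of the difference in mean TSS rank, middle-aged minus young in percentile points, over the 10569 genes with a TSS peak in all 6 libraries (gray bars, 2 points wide; 11 genes lie outside the plotted range), with the 9 genes marked by lines whose heights have no meaning. The genes spread over the bulk of the distribution from Cdkn2b (0.168) to Cdkn1a (22.9).

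Because a rank within a whole list is set against every other peak in it, the genes were also ranked among the TSS peaks of the 10569 genes alone. On this scale the difference was 0.0505 points for Cdkn2a, 1.01 for Cdkn1a, 5.70 for Cdkn1b and 1.07 for Mdm2, and all 4 overlapped between groups. Cdkn2b was then lower in every middle-aged than in every young library, with 81.0, 77.9 and 76.3 in young libraries, against 66.5, 74.9 and 71.7 in middle-aged ones (difference −7.40, two-sided exact permutation p = 0.1, the lowest possible). Of all genes, 6.05% were lower without overlap on this scale and 5.86% higher. The other 8 genes overlapped, with Trp53 (−4.60) and Rb1 (−2.97) also turning negative.

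The number of called regions in the 9 intervals differed little with age. Counting each peak once, young libraries had 22, 25 and 26 peaks and middle-aged libraries 24, 26 and 25, a ratio of means of 1.03. Over the intervals of all protein-coding genes the ratio was 1.26. None of the 9 genes had peak numbers that separated the groups, against 6.6% of genes with more and 0.0948% with fewer in middle-aged libraries. Merging the lists gave 28 regions in the intervals, of which 20 (71.4%) were called in all 6 libraries, against 35.1% of all regions. The intervals were drawn around gene starts, and the share over all regions was not matched for nearness to a start. The 2 regions called in at least 2 more middle-aged libraries lay in Trp53 and Lmnb1, the 1 called in at least 2 more young libraries lay in Trp53, and 0 regions were called in every library of one group and in none of the other.

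The fold enrichment of the 20 shared regions was then tested with limma within a fit over all 22403 shared regions, each library centered on its median. The median fold was 7.16, 8.61 and 7.35 in young libraries, against 9.01, 9.11 and 8.98 in middle-aged ones. Before centering, 7 of the 20 regions were higher in every middle-aged than in every young library and 1 was lower, against 27.4% and 0.46% of all shared regions. No region passed an adjusted p of 0.05 in either direction, a background of 0%, and 1772 regions, 1 of them in the 9 intervals, had an unadjusted p under 0.05. That 1 region was the Rb1 region at the Lpar6 start, with a log2 difference of −0.51 (SE 0.13, adjusted p = 0.539). The Cdkn1a upstream region differed by −0.31 (SE 0.15), and by −0.19 without middle-aged 1 and −0.20 without young 3. The Lmnb1 intron region differed by −0.24 (SE 0.13), and by −0.15 without young 1. The p16Ink4a promoter had a value of 0.16 (SE 0.15), which ranged from 0.040 without middle-aged 3 and 0.077 without young 3 to 0.27 without middle-aged 1. The p19Arf promoter had 0.023 (SE 0.14) and changed sign without young 3 (−0.090) or without middle-aged 3 (−0.045). The promoters of Cdkn1a, Cdkn1b, Mdm2 and Lmnb1 had also been higher in every middle-aged library before centering. They differed by −0.0076 (SE 0.13), 0.062 (SE 0.12), −0.064 (SE 0.12) and 0.029 (SE 0.11) after it. The median over the 20 regions was −0.02, as over all shared regions. Without centering it was 0.21 in the 20 regions and 0.21 in all, and 2 of 20 then had an unadjusted p under 0.05.

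**Figure D4:**
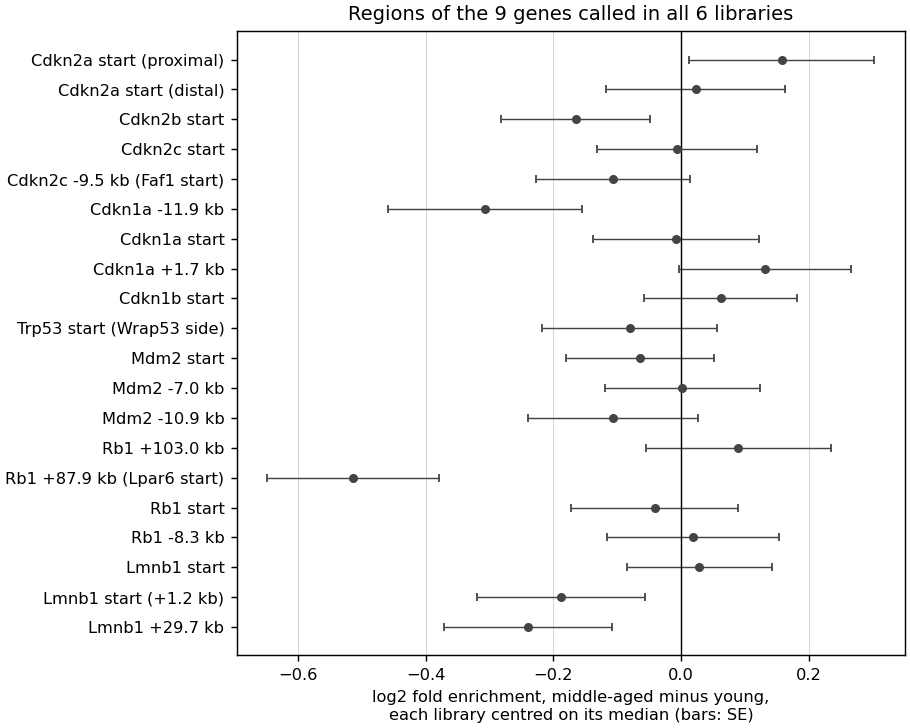
Log2 difference in fold enrichment, middle-aged minus young after centering each library, for the 20 regions of the 9 genes called in all 6 libraries; points are limma estimates, bars are ± SE, and distances are from the nearest TSS of the gene. Most points lie within 1 SE of 0, and the Rb1 region at the Lpar6 start is the lowest at −0.51.

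The genes with the TSS rank pattern closest to 3 of the inhibitors were listed by the mean absolute difference in rank over the 6 libraries. For Cdkn2a these were Saal1 (0.727 points), Dab2 (1.37) and Rassf7 (1.39), which share the low value of young 3. For Cdkn2b they were Scpep1 (0.60), Raph1 (0.60) and St3gal1 (0.65). For Cdkn1a they were less close: Fcrlb (4.83), Marc1 (4.95) and Akt1 (5.04).

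Finally, the wider pathway was read from 8 lists holding 64 genes, of which 50 had a TSS peak in all 6 libraries and 6 in none. Of the 50, 9 (18%) were higher in middle-aged libraries without overlap and 0 lower, against 30.6% and 0.274% of all genes. Among 8 kinases and cyclins, which drive the cycle that the inhibitors block, 7 were called in all 6 libraries and 2 were higher, and Ccnd1, encoding cyclin D1, had a TSS peak in 0 young and 2 middle-aged libraries. Of 10 pocket proteins and E2F factors 9 were called in all 6 and 3 were higher. All 12 p53 regulators and targets were called in all 6 and 2 were higher, and of 6 DNA damage kinases and mediators 1 was. Of 9 Polycomb proteins and histone demethylases, which include the proteins known to keep Cdkn2a silent in young cells, 8 were called in all 6 and 1 was higher.

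The secreted factors of senescent cells had the lowest share of genes called in all 6 libraries among the 8 lists. Of 14, 4 had a TSS peak in all 6 libraries and 4 in none (Il1a, Il1b, Mmp3 and Igfbp5), and 0 were higher or lower without overlap. Igfbp4, an IGF-binding protein, had a TSS peak in young 2 (rank 1.49) and in all 3 middle-aged libraries (ranks 47.1, 40.9 and 28.2). Gdf15, a stress-induced cytokine and p53 target, had one in young 1 (rank 23.7) and in all 3 middle-aged libraries (56.1, 41.5 and 62.1). A TSS peak in at least 2 more middle-aged libraries occurred for 4.51% of the 13447 genes called in any library, and in at least 2 more young libraries for 0.178%. Neither of the other 2 inhibitors, Cdkn2d and Cdkn1c, nor any of 3 lamina genes separated the groups.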

How the data were processed

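ATAC-seq of 3 young and 3 middle-aged SSPC libraries was used as 1 peak list per library, grouped by sample title. Per the labels and methods, the authors made base calls with bcl2fastq, aligned reads to mm10 with Bowtie2, removed duplicates with Sambamba and called peaks with MACS on each library. Whether reads were shifted for the transposase is not given in the sources used here; such a shift moves edges by a few bases. Each list deposited by the authors holds a score (10 times −log10 q as a whole number, not used), a fold enrichment (a linear ratio of summit pileup over local background, each with 1 added), and the −log10 of the p-value and q-value at the summit. The lists end at slightly different thresholds, with a lowest −log10 q of 1.33 to 1.78.

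TSSs came from GENCODE vM21 and sequences from RefSeq GRCm38.p6, the same build. Motifs were searched on both strands. Fold and −log10 p were solved for the Poisson pileup at the summit and its background, which matched the deposited −log10 p within 0.01 for over 99.9% of peaks. The lowest background of a list served as depth. No read totals were given. Group means were compared by exact permutation over 20 assignments (scipy 1.17.1). Log2 fold was fitted with limma 3.58.1 (R 4.3.3) with Benjamini-Hochberg adjustment over all regions called in all 6 libraries and merged at 1 bp of overlap. The script was tested on simulated data. DiffBind, used by the authors, needs reads and was not run.

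The 9 genes and all lists were chosen with earlier results of these data known. Named are these genes, all 28 regions in their intervals, the 3 genes closest in rank to Cdkn2a, Cdkn2b and Cdkn1a, and pathway genes called at the TSS in 2 or more additional libraries of either group; genes of the secreted list called in no library were named after the values were seen. Motifs and the 2 alternatives named as added were chosen after seeing the data.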

Additional observations from a re-analysis of the deposited data

How the results depend on the processing

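Depth limits what these lists can show: a weak peak such as that of Cdkn1a had a rank of 9.01 in the shallowest library, young 3. Its −log10 q there was 4.82, under the stricter threshold of 5 but above the lowest of that list, 1.34. In addition, 3 against 3 libraries cannot give a two-sided exact permutation p under 0.1. With a −log10 q of at least 5, or with lists of equal length, young libraries had on average 0.333 fewer genes of the 9 with a TSS peak. Ranked by fold enrichment, 2 of 9 genes were higher without overlap in place of 4: Cdkn2a, Cdkn1a and Mdm2 lost the separation, Lmnb1 gained it and Cdkn1b had it in both. Ranked among the genes with a TSS peak in all libraries, an alternative chosen after seeing the data, 0 were higher and 1 lower. Leaving out each library in turn gave 4 to 6 higher, against 32.7% to 58.7% of all genes, and 0 to 1 lower. The rank difference of Cdkn2b lay between −1.05 and 0.826 with a library left out; it turned negative by fold enrichment (−1.13), without young 3 (−1.05), without middle-aged 2 (−0.236), without middle-aged 3 (−0.0229) and among TSS peaks (−7.40), and there also those of Trp53 (−4.60) and Rb1 (−2.97). Without young 3, differences were 0.672 for Cdkn2c and 2.40 for Rb1, and without young 2, 12.1 for Trp53; without young 1 that of Trp53 was 4.18 and without middle-aged 2 that of Rb1 was 3.36. A TSS window of 2000 bp took in the intron peak of Cdkn1a and gave it 14.6. Summed gene by gene, where a peak in overlapping intervals counts in each, the ratio of peak numbers in the 9 intervals was 1.03. This ratio stayed between 0.972 and 1.08 over the other thresholds and intervals, and between 0.981 and 1.06 with a library left out. The cause of these changes was not tested.

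In limma, 0 of the regions in the 9 intervals were called under any setting. Over all regions 0 were called except under a prior with an intensity trend, which called 1 outside these intervals; between 1419 and 4748 regions had an unadjusted p under 0.05. The Rb1 region at the Lpar6 start kept its sign in all settings run, between −0.62 (summit pileup over the genome-wide background) and −0.28 (no centering) on the log2 scales. Without centering, the differences were −0.074 for the Cdkn1a upstream region, −0.0053 for the Lmnb1 intron region, 0.39 for the p16Ink4a promoter and 0.26 for the p19Arf promoter. With a library left out the last lay between −0.0901 (without young 3) and 0.136 (without young 1), and was −0.0448 without middle-aged 3. The labels do not say whether library numbers pair the samples. Deviations of same-numbered libraries had correlations of 0.0116, 0.0115 and −0.0185, and not every library correlated best with its own number. These values show no shared deviation but cannot decide whether the libraries were collected or processed in pairs. With the replicate block, limma called 0 regions, with 1759 at an unadjusted p under 0.05, and the lowest adjusted p in the 9 intervals was 0.580. For the ranks, the exact sign permutation over 3 number-matched pairs, with the replicate block, can give no p under 0.25.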
